A study of Mus musculus with 32 samples.

Results

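The synaptic vesicle and release machinery was followed here through 36 genes of 25239 in the exon count tables of mouse amygdala, each found by its exact symbol. They were grouped by role into 7 sets. These were 4 SNARE core genes, 4 regulators of SNARE complexes, 6 genes listed as calcium sensors and 5 vesicle membrane proteins. The others were 6 proteins that sit on vesicles, 7 active zone genes and 4 genes of endocytosis and recycling. Not every gene listed as a calcium sensor need bind calcium. All 36 passed the filter on low counts and were tested in every comparison.

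Wild-type mice received 4-thiouridine (4sU, 100 mM in DMSO) or DMSO alone in the amygdala by stereotaxic injection, and RNA of the amygdala of both sides was taken 24 h later. 4sU is a uridine analogue that enters newly made RNA and, after alkylation, is read as a T-to-C conversion. Mice were at baseline, under acute stress or under chronic stress, and the 4sU libraries number 5 at baseline, 5 after acute and 4 after chronic stress, the DMSO libraries 4, 5 and 3. The DMSO mice thus had the same injection and solvent, and the labels give neither the kind and length of the stress nor the age or sex of the mice. No label ties a replicate to its own animal, and the p-values then reflect only how far these libraries spread, which may be technical.

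Neurotransmitter is released when a vesicle fuses with the presynaptic membrane. The vesicle SNARE synaptobrevin (Vamp1, Vamp2) zips together with the membrane SNAREs syntaxin (Stx1a) and SNAP-25 (Snap25), complexins (Cplx1, Cplx2) bind the assembled complex, and synaptotagmins sense the calcium that triggers fusion. Before fusion, the active zone scaffolds bassoon (Bsn) and piccolo (Pclo), RIM proteins (Rims1, Rims2) and Munc13 proteins (Unc13a, Unc13c) dock and prime vesicles. After it, dynamin-1 (Dnm1), amphiphysin (Amph), synaptojanin (Synj1) and endophilin (Sh3gl2) retrieve membrane, and NSF (Nsf) with its partner beta-SNAP (Napb) takes SNARE complexes apart.

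Libraries held 16150316 to 21228741 exon counts, of which the 36 genes took 1.46% to 1.93%. The 10 baseline and acute 4sU libraries stood apart from the other 16. They had 37.1 to 39.7 reads in 3′ UTR intervals per 100 exon counts, against 44.7 to 53.4 in the others. Their 15 oligodendrocyte markers had a mean level of 7.20 to 7.77 on the log2(CPM + 0.5) scale, against 8.20 to 9.30, where CPM is the count scaled to the library total. The 9 glutamatergic markers had a mean level over 1 log2 unit below the median library (5.33) in 5 libraries, acute DMSO 1, 3 and 4 (2.86 to 3.66), chronic 4sU 3 (4.27) and chronic DMSO 1 (3.37), and chronic 4sU 4 lay just above that limit (4.35). Every one of the 15 pan-neuronal and 12 GABAergic markers was detected in every library, while Emx1 of the glutamatergic and Tfap2d of the 8 amygdala markers were at 0 in some. In such bulk tissue, fewer cells of a type and less RNA per cell cannot be told apart.

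All 36 genes were well expressed. Levels are given here as CPM per kilobase of exon, which allows genes to be compared. In baseline DMSO libraries the median gene of 16310 had 7.31 CPM per kb, 26 of the 36 genes were in the top 10%, and the lowest, Rims2, was above 65.9% of genes. Snap25 led with 570.0 CPM per kb, followed by the vesicle protein synaptophysin (Syp) with 374 and Vamp2 with 341 CPM per kb, each apart from its neighbours in all 4 libraries. Rab3a, the vesicle GTPase, followed with 269 CPM per kb, also apart from the next. Nsf, Cplx1, Syt11, Syt1 and Dnm1 came next at 216 to 226 CPM per kb, and neighbours among these 5 overlapped between libraries. Over the whole order, 27 of 35 neighbouring pairs overlapped. The lower end was held by the active zone, whose 7 genes ranged from 13.2 (Rims2) to 34.8 CPM per kb (Unc13a). Stx1a, at 25.6 CPM per kb, was far below its SNARE partners. Part of the exons of Doc2b (5.0% of bases), Rab3a (2.6%), Synj1 (0.8%), Sv2b (0.7%) and Syn1 (0.3%) overlaps a gene on the opposite strand, and without a stated strand setting reads there cannot be assigned with certainty.

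**Figure D1:**
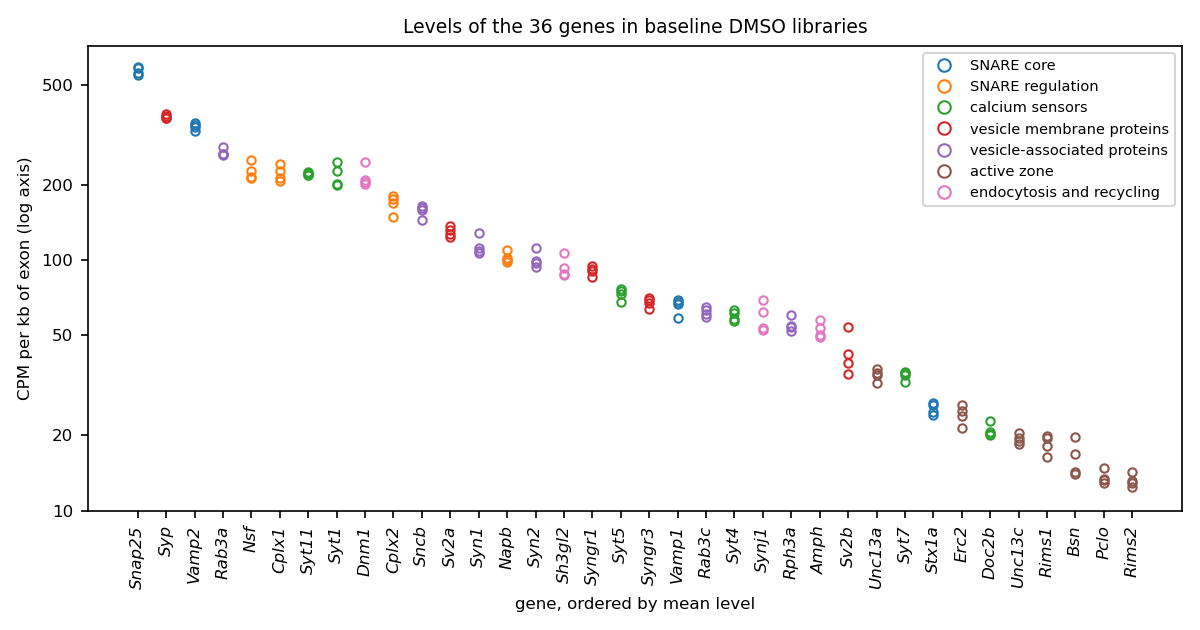
CPM per kb of exon (log axis) of the 36 genes in the 4 baseline DMSO libraries, 1 circle a library, coloured by role and ordered by mean level. Snap25 stands alone at 570.0 CPM per kb and the active zone genes fill the low end, down to 13.2 for Rims2.

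Promoters are shown for a pair of genes that were lower and a pair that were higher after chronic stress in 4sU mice. RefSeq promoter windows (build GRCm38.p6) were at hand for 28 of the 36 genes, and the 250 bases before the annotated start were searched on both strands for GGGCGG (the GC box of Sp1-type factors), CCAAT (the CCAAT box), TGACG (the core of the cAMP response element) and TTCAGCACC (one side of RE1, the element of the repressor REST). None of these motifs contains another, and capitals mark the matches. Syn1 (synapsin I) lies on chromosome X, with its window at chrX:20920919-20921168 on the minus strand, and Bsn on chromosome 9 at chr9:108190384-108190633, also minus. Vamp1 lies on chromosome 6 at chr6:125215331-125215580 on the plus strand, and Unc13c on chromosome 9 at chr9:73969038-73969287 on the minus strand.
Syn1: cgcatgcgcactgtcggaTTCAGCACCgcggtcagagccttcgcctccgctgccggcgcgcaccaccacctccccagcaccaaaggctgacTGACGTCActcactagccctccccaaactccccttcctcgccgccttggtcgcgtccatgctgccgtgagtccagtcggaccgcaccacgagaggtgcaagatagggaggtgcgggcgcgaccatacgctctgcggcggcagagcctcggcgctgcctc
Bsn: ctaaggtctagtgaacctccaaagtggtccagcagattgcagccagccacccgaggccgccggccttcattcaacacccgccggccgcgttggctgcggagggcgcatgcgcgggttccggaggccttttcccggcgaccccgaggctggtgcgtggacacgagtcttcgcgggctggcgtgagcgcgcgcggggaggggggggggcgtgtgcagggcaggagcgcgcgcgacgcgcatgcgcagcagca
Vamp1: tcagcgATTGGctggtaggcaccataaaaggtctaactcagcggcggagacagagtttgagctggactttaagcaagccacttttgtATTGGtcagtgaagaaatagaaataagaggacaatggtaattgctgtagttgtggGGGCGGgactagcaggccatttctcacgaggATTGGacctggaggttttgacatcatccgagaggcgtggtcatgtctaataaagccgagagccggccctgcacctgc
Unc13c: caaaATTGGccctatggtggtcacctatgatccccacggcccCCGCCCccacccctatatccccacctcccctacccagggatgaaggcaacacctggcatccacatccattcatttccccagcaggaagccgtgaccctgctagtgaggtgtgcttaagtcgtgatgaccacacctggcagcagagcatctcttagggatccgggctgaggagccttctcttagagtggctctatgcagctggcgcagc
Syn1 held 1 RE1 side and a palindromic TGACGTCA that counts as 2 matches of the core, one on each strand. Bsn, which is 71.6% G and C in this window, held 0 matches of any of the 4. Vamp1 held 3 CCAAT boxes and 1 GC box, and Unc13c 1 of each. Among the 28 windows 17 (60.7%) held a GC box, against 32.9% of 27025 promoters, and 7 (25%) a CCAAT box, against 34.5%. The TGACG core was in 6 (21.4%), against 17.9%, and the RE1 side in 1 (3.6%), against 0.3%. The 28 windows had a median of 60.0% G and C, and all promoters 52.0%. A match describes letters and is not a measured binding site.

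Chronic stress was compared with baseline in 4sU mice first, where most genes moved. Of the 36 genes 20 fell and 4 rose (edgeR's quasi-likelihood test, Benjamini-Hochberg adjusted p under 0.05 over 16096 genes, used for every count of genes below), and the median log2 fold change was -0.23. With the pan-neuronal marker level as a covariate the median was -0.50, with 26 lower and 4 higher. The share of all genes called with the covariate is not reported here. Without it 56.5% of all genes tested were called, 29.6% lower and 26.9% higher, with a median of -0.02. The 24 called genes are thus 66.7% of the 36, in a comparison that called most of the transcriptome. The libraries on its sides differ as described above: 13 of 15 oligodendrocyte markers were higher and 0 lower after chronic stress (summed 6911 to 9913 CPM at baseline, 20490 to 22590 CPM after), and 3 of 9 glutamatergic markers were lower and 1 higher (2460 to 3354 against 1346 to 2362 CPM). Of the amygdala markers 4 of 8 were lower and 0 higher, of the pan-neuronal 7 of 15 lower and 5 higher. GABAergic markers were lower in 5 of 12 cases and higher in 2. Astrocyte markers were higher in 6 of 11 and lower in 2, endothelial and mural markers higher in 7 of 13 and lower in 1. The part of these differences in the values that follow was not tested.

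**Figure D2:**
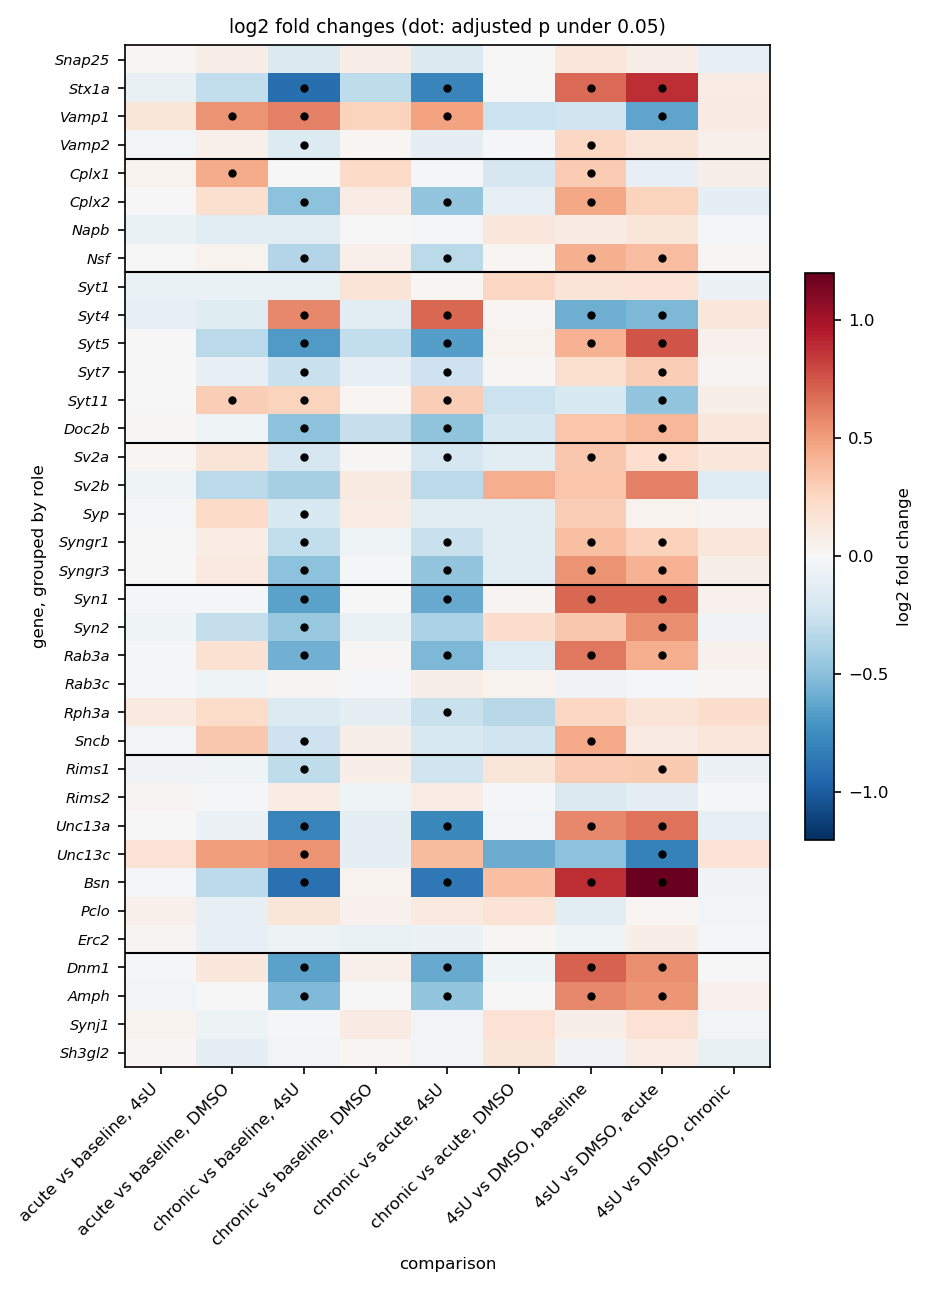
Log2 fold changes of the 36 genes, grouped by role, in 9 comparisons of exon counts, red for higher and blue for lower in the first-named group, with a black dot where the adjusted p was under 0.05. The 4 columns that set baseline or acute 4sU libraries against chronic 4sU or DMSO libraries hold 17 to 24 dots, and the other 5 hold 0 to 3.

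In the SNARE core, Stx1a (syntaxin 1A, chromosome 5, 135023482 to 135051100 in mm10) had 106, 94.8, 84.7, 98.8 and 99.7 CPM in baseline and 54.2, 64.7, 43.2 and 47.2 CPM in chronic 4sU libraries. The groups did not overlap, and it fell by 0.91 ± 0.17 (log2 ± SE, adjusted p = 0.00035). Vamp1 (chromosome 6, 125215581 to 125222306) went the other way, from 167, 188, 170, 171 and 175 CPM to 273, 273, 247 and 280 CPM. Every chronic library was above every baseline library, and the rise was 0.60 ± 0.06 (adjusted p = 1.2e-07). Vamp2, the more abundant synaptobrevin of forebrain, was slightly lower (log2 fold change -0.17 ± 0.05, adjusted p = 0.0065), and it lost its call without chronic 4sU library 2 or 4. Snap25 missed the threshold, at -0.17 ± 0.07 on the log2 scale (adjusted p = 0.051).

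Among SNARE regulators 2 of 4 fell. Cplx2 (complexin 2) went from 1429, 1253, 1294, 1213 and 1453 CPM to 805, 965, 1127 and 945 CPM, without overlap (log2 fold change -0.49 ± 0.08, adjusted p = 7.1e-05). Nsf, the ATPase that disassembles SNARE complexes, was at 983 to 1205 CPM at baseline and at 761.7 to 1030 CPM after chronic stress, so its groups overlapped (log2 fold change -0.36 ± 0.10, adjusted p = 0.0079, lost without chronic 4sU library 4). Cplx1 was not called, with 595 ± 9.8 (SD, n = 5) and 600.5 ± 24.9 CPM (n = 4) and a log2 fold change of -0.01 ± 0.06.

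The 6 genes listed as calcium sensors split, with Syt4 and Syt11 higher and Syt1, Syt5, Syt7 and Doc2b at values below 0. Syt5, a synaptotagmin known from dense-core vesicles, had 178, 176, 183, 179 and 156 CPM at baseline and 95.1, 107, 128 and 112 CPM after chronic stress, and fell by 0.68 ± 0.08 (adjusted p = 4.7e-07). Syt4, which does not bind calcium through its first C2 domain and is known as an activity-induced gene, had 156, 160, 154, 147 and 156 CPM against 210, 218, 265 and 241 CPM, and rose by 0.57 ± 0.07 (adjusted p = 1.1e-06). Neither pair of groups overlapped. Syt11 also rose, by 0.27 ± 0.04 (adjusted p = 5.6e-06), whereas Syt7 and the high-affinity sensor Doc2b fell. Syt1, the main sensor of fast release in forebrain, was at -0.08 ± 0.12 and not called (adjusted p = 0.59).

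All 5 vesicle membrane proteins had values below 0, from -0.49 to -0.18, and 4 of them fell. Syngr3 (synaptogyrin 3) had 184, 203, 208, 190 and 172 CPM at baseline and 139, 131, 146 and 137 CPM after chronic stress (log2 fold change -0.49 ± 0.06, adjusted p = 7.3e-07). Syngr1 was lower by a smaller amount (-0.29 ± 0.06, adjusted p = 0.00059), as was the vesicle glycoprotein Sv2a. The call of Syp (adjusted p = 0.046) held in 2 of 9 fits that left out 1 library. Sv2b was not called.

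Of the 6 proteins on the vesicle surface, 4 fell. Rab3a (chromosome 8, 70754679 to 70758686), which guides vesicles to the active zone, had 653, 604, 600, 616 and 585 CPM at baseline and 428, 424, 415 and 400 CPM after chronic stress. It fell by 0.58 ± 0.05 (adjusted p = 2.0e-08), with groups far apart. Syn1, whose product tethers vesicles to actin and to each other, had 608, 607, 527, 608 and 574 CPM against 424, 411, 353 and 331 CPM, also without overlap (-0.64 ± 0.09, adjusted p = 1.3e-05). Syn2 and beta-synuclein (Sncb) were the other members that fell, while Rab3c (0.03 ± 0.07) and Rph3a (-0.16 ± 0.08) were not called. The call of Syn2 was lost without chronic 4sU library 3 or 4.

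The active zone was split. Unc13a (Munc13-1, the main vesicle priming factor; chromosome 8, 71626712 to 71671757) had 436, 410, 414, 374 and 420 CPM against 244, 243, 245 and 226 CPM, and fell by 0.80 ± 0.05 (adjusted p = 3.3e-10). Bsn had 507, 506, 374, 487 and 501 CPM against 327, 330, 200 and 179 CPM, and its fall of 0.90 ± 0.24 (adjusted p = 0.006) was less precise. The lower Bsn values are those of chronic 4sU libraries 3 and 4, the pair of that group with the lowest glutamatergic marker levels (4.27 and 4.35). Rims1 was lower with a call that held in 2 of 9 fits without 1 library, and Unc13c (Munc13-3) rose by 0.54 ± 0.19 (adjusted p = 0.029, kept in 5 of 9 fits). Pclo, the other giant scaffold, was not called (0.15 ± 0.10), nor were Rims2 and Erc2.

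In endocytosis, Dnm1 (chromosome 2, 32308471 to 32353329) had 1506, 1472, 1327, 1478 and 1435 CPM at baseline and 1038, 1034, 864 and 822 CPM after chronic stress, a fall of 0.64 ± 0.09 (adjusted p = 1.1e-05). Amph went from 280, 260, 212, 263 and 242 CPM to 193, 205, 152 and 158 CPM, also without overlap (-0.53 ± 0.13, adjusted p = 0.0026). Synj1 (-0.01 ± 0.15) and Sh3gl2 (-0.03 ± 0.17) were not called. Over the 36 genes, 18 of the 24 calls held in all 9 fits that left out 1 library. Without the 5 libraries low in glutamatergic markers 25 genes were called, 23 of them among the 24. For that fit the share over all genes is not reported here.

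**Figure D3:**
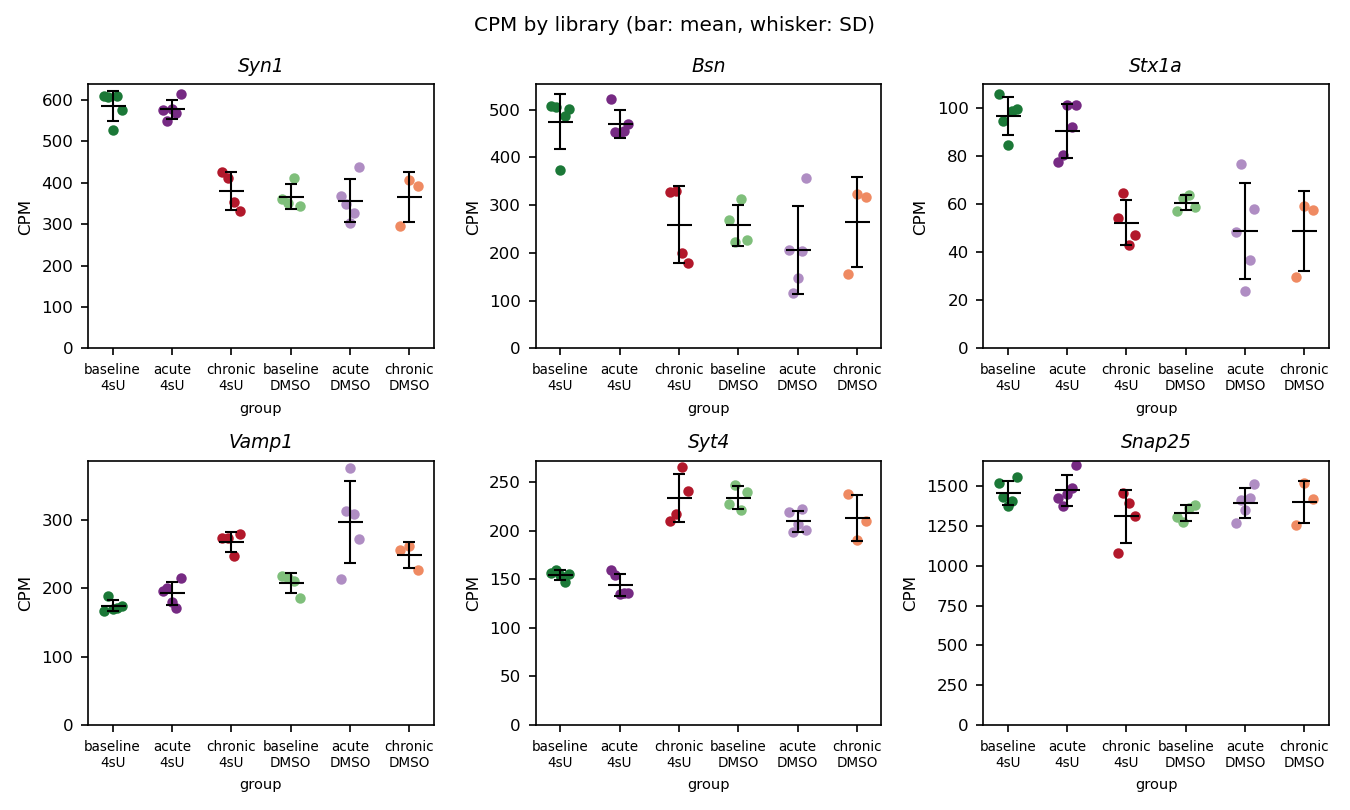
CPM of 6 genes in every library, by group, with the mean as a bar and the SD as a whisker, on linear axes from 0. For Syn1, Bsn and Stx1a the baseline and acute 4sU libraries lie above those of chronic 4sU mice, for Vamp1 and Syt4 below them, and Snap25 overlaps in all 6 groups.

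In this chronic comparison of 4sU mice the direction went with base composition across genes. The T share of the 3′ UTR interval with the most coverage ranged from 22.2% (Cplx2) to 33.4% (Syt4) in the 36 genes, with a median of 27.7%, against 29.1% in 17723 genes. Across 14219 tested genes the chronic log2 fold change in 4sU mice rose with the T share (Spearman's rho = 0.51, a description, since genes share libraries), and across the 36 genes rho was 0.49. In DMSO mice rho was 0.10 over all genes and 0.11 over the 36. Across the division of libraries described above it was also 0.51 over all genes for chronic against acute stress in 4sU mice. For 4sU against DMSO under acute stress it was -0.50. On the same side of the division it was -0.01 for acute stress in 4sU mice and -0.03 for 4sU against DMSO under chronic stress. Over the 36 genes these 4 values were 0.53, -0.37, -0.04 and -0.31. In DMSO mice, acute stress against baseline and chronic against acute stress also lie on the same side. There rho was 0.01 and 0.07 over all genes, but -0.31 and 0.50 over the 36. Among the 36 genes the dependence was thus not limited to comparisons across the division. The cause was not tested. When tested genes were split into 5 classes of T share, median log2 fold changes in 4sU mice were -0.39, -0.23, -0.05, 0.18 and 0.34 from the lowest class to the highest. The 8 genes of the lowest class had 7 falls and 0 rises, the 10 of the next class 8 falls and 1 rise (Syt11), and the 2 of the highest class, Snap25 and Syt4, 0 falls and 1 rise. Measured against the median of its own class, the median of the 36 genes was -0.10, with 23 below and 13 above. Stx1a (-0.68), Bsn (-0.67) and Syn2 (-0.63) lay farthest below their class, and Vamp1 (0.65) and Syt11 (0.50) farthest above. The T share classes were added after the data were seen.

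**Figure D4:**
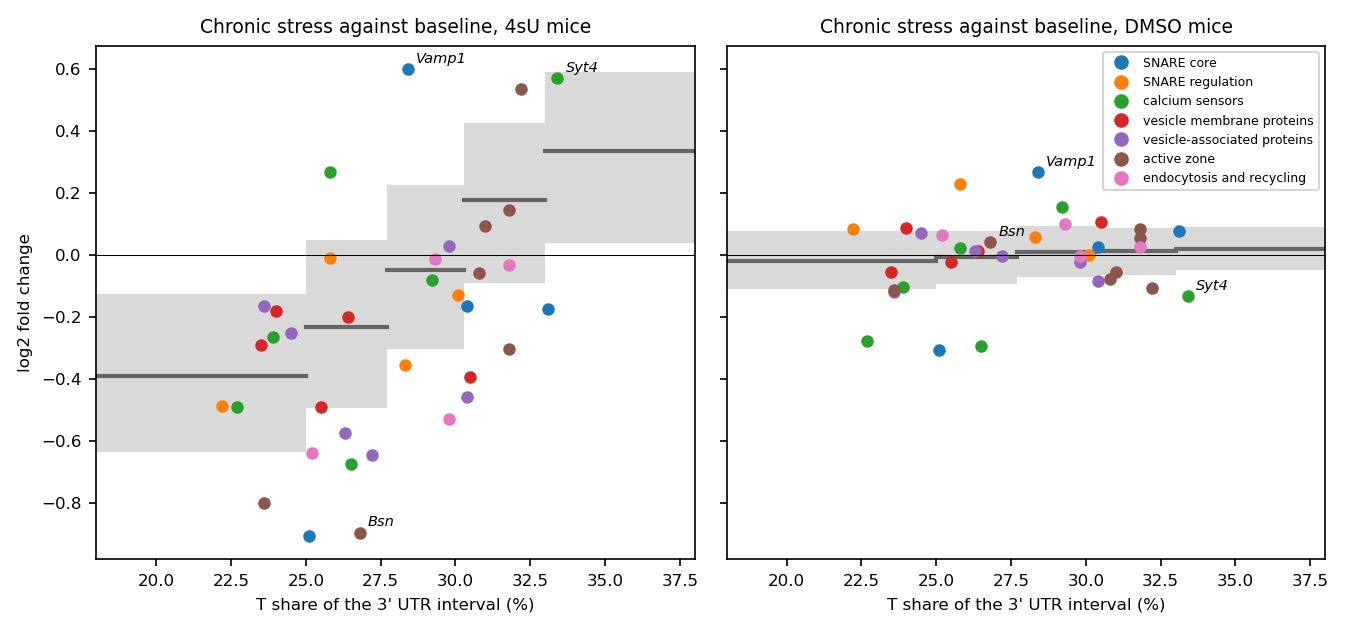
Log2 fold change of chronic stress against baseline by T share of the 3′ UTR interval, in 4sU mice on the left and DMSO mice on the right. Points are the 36 genes by role, dark lines the median and grey boxes the middle quartiles of all tested genes in 5 classes of T share, with the outer classes drawn only from 18% to 38%. Class medians climb from -0.39 to 0.34 on the left and stay between -0.02 and 0.02 on the right.

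In DMSO mice, chronic stress against baseline lies on one side of the division between libraries. None of the 36 genes was called (0 of 36, as for 0% of 16096 genes; 4 members and 913 genes had an unadjusted p under 0.05, and DESeq2 called 0 members and 11 genes). Their median log2 fold change was 0.01. Vamp1 had 218, 215, 210 and 186 CPM at baseline and 256, 262 and 227 CPM after chronic stress (0.27 ± 0.07, adjusted p = 0.55). Syt5 had 122, 134, 131 and 137 CPM against 116, 96.7 and 107 CPM (-0.29 ± 0.09, adjusted p = 0.63). Stx1a (-0.31 ± 0.19), Bsn (0.04 ± 0.27) and Syn1 (0.00 ± 0.10) overlapped between the groups. Chronic DMSO library 1, one of those low in glutamatergic markers, had the lowest Stx1a (29.6 CPM), Syn1 (296 CPM) and Bsn (157 CPM) of its group, whose others were at 57.5 and 59.5, 393 and 406, and 316 and 323 CPM.

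The difference between the arms in the chronic effect was tested directly. It was called for 15 of the 36 genes, 12 with the more negative effect in 4sU mice and 3 with the more positive one, against 38% of all genes (19.9% and 18.1%). The 3 were Syt4 (0.71 ± 0.10, adjusted p = 4.0e-05), Syt11 and Vamp1. Unc13a (-0.69 ± 0.07, adjusted p = 1.5e-06), Rab3a (-0.59 ± 0.07) and Syngr3 (-0.47 ± 0.09) had the smallest p of the 12, while the difference of Dnm1 was larger (-0.71). The count moved with the processing, from 8 in a fit of all 6 groups to 27 with the pan-neuronal marker level as a covariate. It was 23 without the 5 libraries low in glutamatergic markers. Shares of all genes called in those fits are not reported here.

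Chronic was also set against acute stress. In 4sU mice 16 genes were lower and 3 higher after chronic stress (47.2% of 16310 genes called, 23.3% lower and 23.9% higher). Syt4 had 159, 155, 135, 136 and 136 CPM under acute and 210, 218, 265 and 241 CPM under chronic stress (0.69 ± 0.07, adjusted p = 4.8e-08). Syngr3 was at 180 to 205 CPM against 131 to 146 CPM (-0.47 ± 0.08, adjusted p = 2.1e-05). This comparison shares the chronic 4sU libraries with the one against baseline, and it crosses the same division. In DMSO mice 0 of the 36 genes were called (1.78% of all genes; 4 members had an unadjusted p under 0.05, and DESeq2 called Syt11). Syt11 was at 1112 to 1469 CPM under acute and 1013 to 1029 CPM under chronic stress (-0.26 ± 0.07, adjusted p = 0.063).

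Acute stress was compared with baseline in 4sU mice. None of the 36 genes was called (0.269% of 15995 genes; 0 members had an unadjusted p under 0.05, and DESeq2 called 0), and their log2 fold changes ran from -0.10 (Syt4) to 0.18 (Unc13c). Both groups of this comparison are on the same side of the division. The share of exon counts in the 36 genes was 1.85% ± 0.07 (SD, n = 5) at baseline and 1.82% ± 0.06 (n = 5) under acute stress.

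In DMSO mice 3 genes rose and 0 fell under acute stress, against 2.51% of all genes called and 1.41% higher. Cplx1 (chromosome 5, 108518554 to 108550027) had 499, 453, 527 and 466 CPM at baseline and 566, 808, 625, 640 and 626 CPM under acute stress, every acute library above every baseline one (0.44 ± 0.09, adjusted p = 0.011). Vamp1 had 218, 215, 210 and 186 CPM against 213, 314, 376, 308 and 272 CPM, where acute DMSO library 1 fell among the baseline values (0.53 ± 0.12, adjusted p = 0.019). Syt11 had 1021, 1014, 994 and 996 CPM against 1122, 1469, 1203, 1183 and 1112 CPM, again without overlap (0.29 ± 0.07, adjusted p = 0.04). The call of Cplx1 held in all 9 fits that left out 1 library, that of Vamp1 in 6 and that of Syt11 in 3. None of the 3 held when only the compared groups were fitted or with the pan-neuronal marker level as a covariate. Without the libraries low in glutamatergic markers 9 genes were called, with only acute DMSO libraries 2 and 5 left. Shares over all genes are not reported here for these refits.

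Acute DMSO libraries varied widely. The summed striatal medium spiny neuron markers ran from 966 to 4687 CPM, and the choroid plexus marker Ttr from 2.27 to 5366 CPM. Unc13c, known from cerebellar granule cells, was at 300, 72.3, 375, 298 and 154 CPM (0.50 ± 0.30, adjusted p = 0.43, and -0.59 once libraries with low glutamatergic marker levels were left out), and Bsn at 206, 116, 148, 205 and 356 CPM (-0.31 ± 0.21, adjusted p = 0.48). In these libraries 9 of 15 oligodendrocyte markers were higher than at baseline and 0 lower (14050 to 18090 against 18710 to 30150 CPM summed), 3 of 15 pan-neuronal markers were higher and 0 lower (5743 to 5863 against 5654 to 6315 CPM), and 4 of 8 amygdala markers were lower and 0 higher (243.8 to 314 against 161 to 209 CPM). Their part in the rises was not tested. Averaged over both arms, 2 genes rose and 0 fell (2.39% of genes called, 1.48% higher), Vamp1 (0.34 ± 0.08, adjusted p = 0.027) and Cplx1 (0.24 ± 0.06, adjusted p = 0.039), which kept their calls in 9 and 6 of 19 fits without 1 library. The acute effect was not called different between the arms for any gene (0 of 36 and 0% of 15995; 5 members and 916 genes had an unadjusted p under 0.05, and DESeq2 called 0 members and 20 genes). Without the libraries low in glutamatergic markers that difference was called for 3 of the 36 genes, Cplx1, Sncb and Syp. The share of all genes called in that fit is not reported here. It leaves acute DMSO libraries 2 and 5, and library 2 was the higher for Cplx1 (808 and 626 CPM), Sncb (384.5 and 259.5 CPM) and Syp (1761 and 1128 CPM). Their striatal markers summed to 966 and 1014 CPM, against 2235 to 3709 CPM in baseline DMSO libraries. The part of this difference in the calls of such fits was not tested.

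The injections themselves were compared within each state. At baseline 16 genes were higher and 1 lower in 4sU than in DMSO mice (41.9% of all genes called, 21.1% higher and 20.7% lower), with a median of 0.30 against -0.01 over all genes. Syn1 was at 527 to 608 CPM in 4sU and 343 to 410 CPM in DMSO libraries (0.69 ± 0.09, adjusted p = 6.3e-06). Dnm1 was at 1327 to 1506 and 834 to 1017 CPM (0.70 ± 0.11, adjusted p = 4.0e-05), and Bsn at 374 to 507 and 222 to 314 CPM (0.89 ± 0.21, adjusted p = 0.0023). The gene that was lower in 4sU mice was Syt4, at 147 to 160 against 222 to 247 CPM (-0.59 ± 0.06, adjusted p = 9.9e-07). The comparison crosses the division, with 13 of 15 oligodendrocyte markers lower and 0 higher in 4sU mice, and across 14160 genes the log2 fold change fell with the T share (Spearman's rho = -0.53, and -0.57 over the 36 genes).

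Under acute stress 16 genes were higher and 4 lower in 4sU mice (48.3% of genes called, 23.5% higher and 24.8% lower). The 4 were Syt4, Syt11, Vamp1 and Unc13c. Bsn was at 452 to 522 CPM in 4sU and 116 to 356 CPM in DMSO libraries (1.19 ± 0.20, adjusted p = 7.2e-05), and Syt5 at 158 to 195 against 73.3 to 126 CPM (0.75 ± 0.11, adjusted p = 1.4e-05). Oligodendrocyte markers were lower in 14 of 15 cases and higher in 0. Without the libraries low in glutamatergic markers 16 of the 36 genes were called, and the share over all genes is not reported here. Under chronic stress, where both groups lie on the same side, 0 of the 36 genes were called (0.137% of 16096 genes; 2 members had an unadjusted p under 0.05, and DESeq2 called 0), and log2 differences ran from -0.16 to 0.21. Syn1 was at 331 to 424 CPM in chronic 4sU and 296 to 406 CPM in chronic DMSO libraries, and Stx1a at 43.2 to 64.7 and 29.6 to 59.5 CPM.

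Conversions give a second view of the same genes, since they count 4sU built into RNA during the labelling period. Rates are given as conversions per 100000 covered T positions of the most covered 3′ UTR interval, and DMSO libraries give the background of sequencing errors and variants. Over all genes a library had 40.1 to 78.5 conversions per 100000 T in 4sU mice and 22.7 to 31.7 in DMSO mice, and over the 36 genes together 66.6 to 131 and 24.9 to 34.5. At baseline the rate of 22 of the 36 genes was higher in 4sU libraries and that of 0 lower, against 7.33% of 8658 genes called (7.17% higher). Under acute stress it was 23 (11.8%, of which 11.6% higher) and under chronic stress 24 (14.3%, 14.2% higher), with 0 lower in either state. The median log2 ratio of the 36 genes was 0.99, 1.37 and 1.64 in the 3 states, and that of all genes 0.20, 0.37 and 0.62.

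Coverage differs between genes, and both the share called and the median ratio were higher in classes of genes with more coverage. Of the 1135 genes with at least 50000 covered T positions, 36.3%, 48.3% and 55.3% were called in the 3 states, and their median log2 ratios were 0.60, 0.80 and 1.16. Of the 36 genes 27 belong to that class, of which 21, 22 and 22 were called, with medians of 1.505, 1.60 and 1.78. The coverage classes were added after the data were seen.

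Snap25 had the largest excess over DMSO in all 3 states. Its rates at baseline were 159, 105, 132, 127 and 101 in 4sU and 35.5, 32.6, 35.2 and 35.0 in DMSO libraries (log2 ratio 1.85 ± 0.21, adjusted p = 3.0e-15). Under acute stress it had 185, 133, 144, 112 and 112 against 22.6 to 38.1, and under chronic stress 112, 162, 135 and 190 against 32.2 to 38.4. In each state every 4sU library was above every DMSO library. Syn1 at baseline had 126, 122, 131, 102 and 92.6 conversions per 100000 T in 4sU and 22.0, 31.6, 29.1 and 37.6 in DMSO libraries (log2 ratio 1.93 ± 0.27, adjusted p = 9.8e-11). Vamp2 (1.91 ± 0.23), Syp (1.86 ± 0.23), Vamp1 (1.86 ± 0.26) and Syt1 (1.83 ± 0.23) had similar log2 ratios. By role, all 4 SNARE regulators and all 6 vesicle-associated genes were called in each state.

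**Figure D5:**
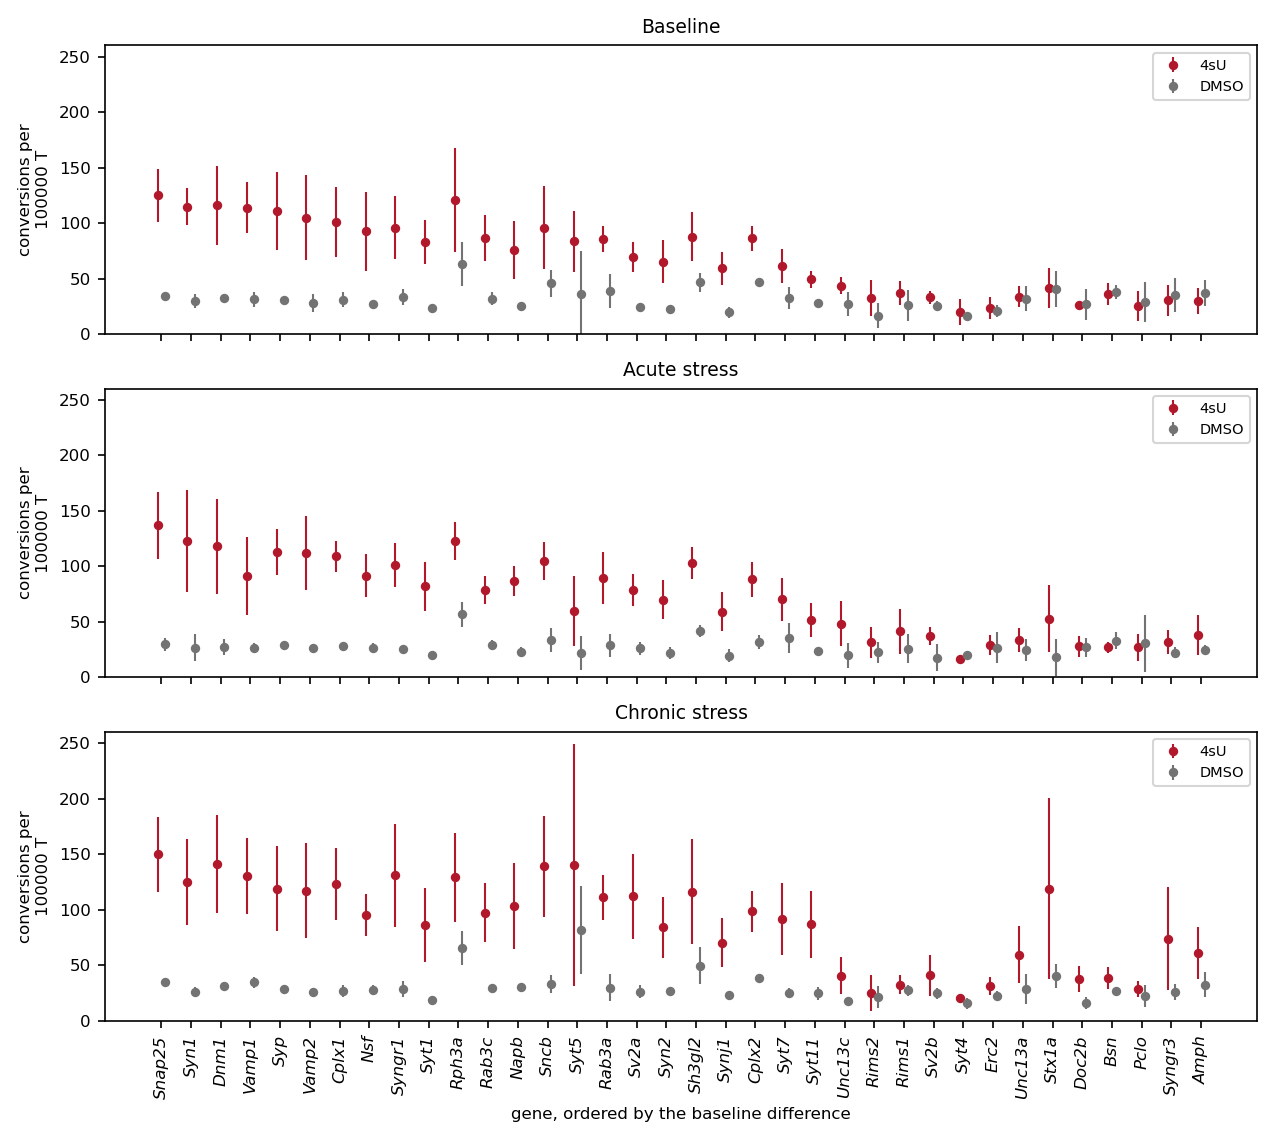
Mean conversions per 100000 covered T positions of the 36 genes in 4sU (red) and DMSO (grey) libraries of each state, with the SD as whiskers, ordered by the baseline difference. Rates in 4sU libraries lie far above DMSO for Snap25, Syn1 and Dnm1 on the left and near DMSO for the genes on the right, among them Syt4, Bsn, Pclo and Erc2.

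None of the 7 active zone genes was called in any state (0, 1 and 1 had an unadjusted p under 0.05). Their median log2 ratios were 0.17, 0.45 and 0.45, beside 0.20, 0.37 and 0.62 for all genes of any coverage. Rims1, Rims2, Pclo and Unc13c had group means of 12000 to 39400 covered T positions. Of all genes with 10000 to 50000 such positions only 4.99%, 10.1% and 13.7% were called. Bsn, Unc13a and Erc2 had more, with group means of 48800 to 129000. Their log2 ratios were -0.085, 0.086 and 0.174 at baseline, -0.285, 0.454 and 0.159 under acute stress, and 0.525, 1.067 and 0.447 under chronic stress. Genes with at least 50000 such positions had higher medians, of 0.60, 0.80 and 1.16. Bsn had 119000 covered T positions per baseline 4sU library on average, with rates of 39.6, 29.4, 51.9, 27.8 and 31.2 in 4sU and 47.6, 35.7, 35.4 and 33.3 in DMSO libraries, which overlap. Under chronic stress they did not, at 30.1 to 49.2 and 25.5 to 29.2, though without a call. Unc13c, with 12000 covered positions, rested on 26 conversions in the 5 libraries together. Syt4, which had 59100 covered positions, had 12.6, 24.3, 37.8, 7.13 and 17.5 in 4sU against 17.9, 14.9, 16.3 and 17.7 in DMSO libraries (log2 ratio 0.25 ± 0.37, adjusted p = 0.88). It stayed uncalled under acute (-0.30 ± 0.36) and chronic stress (0.38 ± 0.40). Stx1a was called only under chronic stress (1.61 ± 0.59, adjusted p = 0.045), in 2 of 7 fits without 1 library, and the difference between states was not called.

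Rates were also compared between stress and baseline in 4sU mice, after libraries were scaled to a common overall rate. No gene of the 36 was called for acute stress (0.0116% of 8658 genes; 1 member had an unadjusted p under 0.05) or for chronic stress (0.3%; 7 members). The smallest p under chronic stress was that of Syt1 (log2 ratio -0.37 ± 0.13, adjusted p = 0.39), followed by Syt11 (0.39 ± 0.14, adjusted p = 0.42). The direction of Syt1 rests on the scaling: its mean rate was 82.8 at baseline and 86.3 after chronic stress, and without the scaling its log2 ratio was 0.06. The median of the 36 genes also turned, from -0.11 to 0.28, and Syngr3 and Syt11 were then called higher. Overall rates spread widely within the chronic group, from 48.8 to 78.5 conversions per 100000 T over all genes.

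A further 83 genes of the release machinery, listed with earlier results of these data known, were counted beside the 36. After chronic stress in 4sU mice 38 fell and 17 rose, with a median of -0.18, where 29.6% of all genes fell and 26.9% rose. The adaptor subunit Ap2a1 fell by 1.03 ± 0.05 (adjusted p = 1.1e-11), neurexin 2 (Nrxn2) by 0.81 ± 0.05 and liprin-alpha-3 (Ppfia3) by 0.79 ± 0.07. Sypl rose by 1.08 ± 0.07 (adjusted p = 3.0e-10) and endophilin A3 (Sh3gl3) by 0.87 ± 0.06. In DMSO mice 0 of the 83 were called after chronic stress (6 had an unadjusted p under 0.05, and DESeq2 called 0). Under acute stress 0 were called in 4sU mice (0 had an unadjusted p below 0.05, and DESeq2 called 0). In DMSO mice, where 2.51% of all genes were called, Doc2a (-0.51 ± 0.10, adjusted p = 0.0081) and the Munc13 paralogue Unc13b (-0.52 ± 0.13, adjusted p = 0.035) fell and Sh3gl3 rose (0.46 ± 0.12, adjusted p = 0.042). Rates of conversion could be tested for 78 of the 83. Of these 23, 29 and 32 were higher in 4sU libraries at baseline, under acute and under chronic stress, where 7.17%, 11.6% and 14.2% of all genes were. These shares are not matched for coverage, with which the share called rises, so they do not set the 83 apart. The vacuolar proton pump subunit Atp6v1a, which helps to acidify vesicles, had the smallest p at baseline (log2 ratio 2.28 ± 0.25, adjusted p = 3.7e-17), and Syt2 (1.92 ± 0.30) and the clathrin adaptor AP180 (Snap91, 1.899 ± 0.30) came next by p.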

How the data were processed

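RNA-seq of mouse amygdala after 4sU or DMSO injection was analysed from 26 libraries in 6 groups, assigned from the sample titles. The 6 auditory cortex libraries were not used here. The authors deposited whole-number exon counts per gene, not normalized, in tables that share 9 baseline columns. These columns differed in 0 values, and the tables were joined. The deposited conversion tables hold, per 3′ UTR interval, counts of reads, covered T positions and T-to-C conversions, and per the file headers they come from slamdunk 0.4.3. Per the submitters' processing notes, mm10 was used along with featureCounts 2.0.1, SAMtools 1.9, HISAT2 2.1.0 and cutadapt 3.1, whose roles are not stated. How strand and multiple matches were handled is not given in the sources used here.

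Exon counts were fitted in R 4.3.3 by edgeR 4.0.16 (TMM, filterByExpr, robust quasi-likelihood, two-sided, Benjamini-Hochberg over all genes tested, threshold 0.05), with 1 coefficient per group. Baseline, the stress compared and both injections entered a fit together, and all 6 groups for chronic against acute stress. CPM of genes are TMM-scaled. Marker levels are means of log2(CPM + 0.5) over a list. Of 23996 intervals 23890 carried a symbol, and a gene is represented by its interval with the highest coverage (19258 genes, 87.5% of covered T positions). Conversions were fitted by edgeR, offset by the log of coverage, for genes averaging at least 2000 covered T positions and covered in every library. Libraries held 16150316 to 21228741 exon counts and 217691230 to 347833440 covered T positions. No molecular identifiers are given, so counting error may be understated.

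Alternatives were DESeq2 1.42.0 and its size factors, other filters, 3′ UTR reads, a pan-neuronal covariate, other sets of groups, a replicate block, other coverage minimums and leaving out each library. Leaving out libraries low in glutamatergic markers was chosen after seeing the data. The fits were also run on simulated counts with known changes, and the outcome is not reported here. Those counts do not hold the division between libraries, so they cannot vouch for comparisons that cross it. Tables and figures used Python 3.11.15, pandas 2.3.3, numpy 2.4.6 and matplotlib 3.10.9.

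The 36 genes, their 7 roles, the 83 further genes and the 11 marker lists were chosen with earlier results of these data known. By rule, any of the 36 could be named, up to 2 of each role with the smallest p in a comparison were to be given in full, and up to 6 of the 83, of which 1 is not reported here. Which of these are printed for the smaller comparisons, and contrasts such as Snap25, Cplx1, Syt1 and Pclo, was chosen after their values were seen. Libraries of one group differed by more than sampling noise, so none was treated as a repeat deposit.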

Additional observations from a re-analysis of the deposited data

Results flagged for a closer look

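In 13 of 180 sets of values (1 gene in 1 group of 4 or 5 libraries, 7.2%), 1 library lay far from the others by Dixon's test, where chance gives about 1 in 20. Acute DMSO library 2 accounts for 4 of them. Nsf in acute 4sU library 5 was above its group, at 1244 against 1089 to 1109 CPM. Syt5 in baseline 4sU library 5 was below its group, at 156 against 176 to 183 CPM. Syt11 in acute DMSO library 2 was above its group, at 1469 against 1112 to 1203 CPM. Rab3a in baseline DMSO library 3 was above its group, at 417 against 388 to 392 CPM. Rab3a in acute DMSO library 2 was above its group, at 650.3 against 351 to 426 CPM. Sncb in acute DMSO library 2 was above its group, at 384 against 223 to 259.5 CPM. Rims1 in baseline 4sU library 3 was below its group, at 126 against 156 to 165 CPM. Rims2 in acute DMSO library 2 was below its group, at 52.7 against 102 to 119.6 CPM. Unc13a in chronic 4sU library 4 was below its group, at 226 against 243 to 245 CPM. Bsn in baseline 4sU library 3 was below its group, at 374 against 487 to 507 CPM. Bsn in acute 4sU library 1 was above its group, at 522 against 452 to 470.3 CPM. Dnm1 in baseline DMSO library 3 was above its group, at 1017 against 834 to 865 CPM. Dnm1 in acute 4sU library 5 was above its group, at 1567 against 1371 to 1406 CPM.

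The same test on conversions per 100000 covered T positions singled out 1 library in 9 of 180 sets (5.0%). Over all genes, baseline 4sU library 1 had the highest rate of its group (54.8, the rest 42.3 to 50.8). Chronic 4sU library 1 had the lowest of its group (48.8, the rest 55.0 to 78.5). Vamp1 had 19.4 in acute DMSO library 1 and 27.3 to 30.4 in the rest of the group. Nsf had 155 in baseline 4sU library 1 and 68 to 89.7 in the rest of the group. Syt1 had 117 in baseline 4sU library 1 and 65.6 to 80.1 in the rest of the group. Doc2b had 12.2 in acute DMSO library 4 and 28.7 to 33.5 in the rest of the group. Rph3a had 204 in baseline 4sU library 1 and 94.1 to 113 in the rest of the group. Sncb had 71 in chronic 4sU library 1 and 155 to 172 in the rest of the group. Rims1 had 76.8 in acute 4sU library 3 and 24.4 to 38 in the rest of the group. Bsn had 47.6 in baseline DMSO library 1 and 33.3 to 35.7 in the rest of the group. Dnm1 had 29.4 in baseline DMSO library 4 and 33.2 to 34 in the rest of the group.

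The chronic effect differed between the injection arms for 15 of the 36 genes (41.7%) by a direct test of the difference (edgeR, adjusted p under 0.05). Of all 16096 genes tested, 38% were called, a share near that of the 36. The log2 effect in 4sU mice minus that in DMSO mice was below 0 for Vamp2 (-0.19), Cplx2 (-0.57), Nsf (-0.41), Syt5 (-0.38), Sv2a (-0.21), Syngr3 (-0.47), Syn1 (-0.64), Rab3a (-0.59), Sncb (-0.32), Unc13a (-0.69), Dnm1 (-0.71) and Amph (-0.53). It was above 0 for Vamp1 (0.33), Syt4 (0.71) and Syt11 (0.25). The arms also differ in which libraries stand apart, since baseline 4sU libraries had fewer 3′ UTR reads and lower oligodendrocyte markers than the other 3 groups compared, and their part in the difference was not tested.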

How the results depend on the processing

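Of 4228 alternative values for single genes, 3996 kept direction and side of the threshold, 137 fell short of it, 41 passed it and 54 changed sign. All 54 belong to 41 differences that passed the threshold neither as reported nor under that alternative, and they are given at the end. The count of called genes among the 36 moved by over 1.5 times in the cases that follow, and the cause was not tested. Shares over all genes are not reported here for the alternatives in this section. For acute stress in DMSO mice (3 called) it was 0 with the pan-neuronal covariate, 0 with only the compared groups and 9 without libraries low in glutamatergic markers. For acute stress averaged over the arms (2) it was 1 with no filter, 0 with 3′ UTR reads, 0 with the covariate, 1 with the replicate block and 5 without those libraries, and the arm difference in the acute effect went from 0 to 3 without them. For 4sU against DMSO at baseline (17) it was 28 with only the compared groups. For the arm difference in the chronic effect (15) it was 27 with the covariate, 8 with all 6 groups in a fit and 23 without those libraries. Chronic against acute stress in DMSO mice went from 0 to 1 with DESeq2 size factors, DESeq2 or the covariate, and conversion under chronic against baseline from 0 to 2 with no rescaling. The median log2 difference of the 36 genes turned from -0.025 to 0.10 for acute stress in DMSO mice without those libraries, and from -0.11 to 0.28 for conversion under chronic stress with no rescaling.

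Leaving out 1 library gave 1 to 5 genes for acute stress in DMSO mice, 0 to 4 averaged over the arms, 16 to 18 and 17 to 24 for 4sU against DMSO at baseline and under acute stress, 19 to 25 for chronic stress in 4sU mice, 10 to 21 for the arm difference, and 16 to 19 and 0 to 2 for chronic against acute stress in 4sU and DMSO mice. Same-numbered libraries did not regularly deviate together (12 of 35 pairs had a correlation above 0.1, from -0.47 to 0.42). No pairing by number was seen, though groups this small cannot exclude it. With the replicate block the count was 21 for chronic stress in 4sU mice, 12 for the arm difference and 2 for acute stress in DMSO mice. Of the 8 genes with 10000 to 50000 covered T positions 1, 1 and 2 were called for conversion in the 3 states, where 4.99%, 10.1% and 13.7% of all genes of that coverage were.

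The log2 values that changed sign follow. Without libraries low in glutamatergic markers these were Rph3a -0.049, Unc13c -0.59, Stx1a 0.16 and Sh3gl2 0.20 for acute stress in DMSO mice, Unc13c -0.21, Stx1a 0.035 and Sh3gl2 0.11 for its average over the arms, Unc13c 0.77 and Sh3gl2 -0.17 for the arm difference in the acute effect, Erc2 0.008 and Syngr1 0.027 for chronic stress in DMSO mice, Amph -0.048 for 4sU against DMSO under chronic stress and Unc13c 0.17 for chronic against acute stress in DMSO mice. With the pan-neuronal covariate they were Dnm1 -0.057 for acute stress in DMSO mice, Sncb -0.002 and Dnm1 -0.047 for its average over the arms, Syp 0.10 and Dnm1 0.018 for the arm difference in the acute effect, Syp -0.01, Dnm1 -0.064 and Synj1 -0.09 for chronic stress in DMSO mice, Amph -0.069 for 4sU against DMSO under chronic stress and Vamp2 0.025 for chronic against acute stress in DMSO mice. With 3′ UTR reads they were Sv2a 0, just below it before rounding, for acute stress in 4sU mice and Vamp2 0.02 for chronic against acute stress in DMSO mice. With no rescaling they were Syt1 0.058, Syp 0.11, Nsf 0.039, Vamp2 0.14, Rab3c 0.17, Syn1 0.12, Cplx2 0.19 and Synj1 0.24 for conversion under chronic stress. Leaving out 1 library gave ranges across 0. For acute stress in 4sU mice they were Cplx1 -0.01 to 0.063, Sv2a -0.009 to 0.048, Synj1 -0.003 to 0.074, Amph -0.088 to 0.003 and Sv2b -0.13 to 0.02. For the acute effect averaged over the arms they were Dnm1 -0.003 to 0.088. For chronic stress in DMSO mice they were Erc2 -0.13 to 0.015, Syngr1 -0.11 to 0.034 and Dnm1 -0.025 to 0.19. For 4sU against DMSO under chronic stress they were Cplx1 -0.027 to 0.16, Unc13c -0.011 to 0.48, Sh3gl2 -0.30 to 0.038 and Amph -0.13 to 0.16. For chronic against acute stress in DMSO mice they were Vamp2 -0.092 to 0.055. For conversion under acute stress they were Syt4 -0.52 to 0.021, Cplx1 -0.018 to 0.21 and Sncb -0.055 to 0.23.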
